A study of Mus musculus with 16 samples.

Results

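Potassium channel genes encode the pore-forming and accessory subunits of the channels that carry the repolarising currents of the heart. They were taken as all genes of the count table whose symbol starts with Kcn, at least 1 further letter and a number, without opposite-strand genes and pseudogenes. The rule found 94 of 56953 genes. Kcnq1ot1, which it also found, is the antisense RNA of the Kcnq1 locus and encodes no channel. Of the 94 members, 60 had enough reads to be tested and 34 had not, and Kcna10, Kcnk16 and Kcns2 had 0 reads in every library. Those not tested included Kcne2, Kcnk1, Kcnma1, Kcnmb2, Kcnmb4 and Kcna3.

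Left ventricles of 16 Bl6J mice were sequenced as polyadenylated RNA, with 4 libraries in each of 4 groups. All mice received AAV9 at 1e12 viral genomes through the tail vein when 4 weeks old, and their hearts were taken at an age of 16 weeks. WT Ctr mice were wild type for Rbm20, a splicing factor of heart muscle, and were given the Ctr construct, pCAG-iCre-T2A-eGFP. WT Tnpo3 mice were wild type and were given the Tnpo3 cDNA, which encodes an importer of splicing factors into the nucleus. P635L Ctr mice were homozygous for the RBM20 mutation P635L with the Ctr construct, and P635L Tnpo3 mice carried the same mutation with the Tnpo3 cDNA. The control groups therefore carried a virus that makes Cre and a green fluorescent protein. Its CAG promoter is not restricted to cardiomyocytes, and no group without virus was analysed here. Males and females were used, with no sex given for each library.

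A heartbeat ends when potassium leaves the cardiomyocyte and returns its membrane to rest. In the mouse ventricle most of this is done by the fast transient outward current (Kcnd2 and Kcnd3 pores with the Kcnip2 subunit) and by delayed rectifiers such as the Kcna5 channel. Kcnj2 and Kcnj12 hold the resting potential, while Kcnj3 with Kcnj5 answers acetylcholine and Kcnj11 with Kcnj8 answers the energy state of the cell.

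Kcnip2 held the 1 member splicing event called by the rule given with the splicing results below. That was 1 of 55 member events in P635L Tnpo3 against WT Ctr, where 1.65% of all events were called. Its alternative exons are printed here, 5′ to 3′ on the sense strand. They were read from GRCm38 transcripts (GENCODE M21) by matching exon and intron lengths to the deposited event, and 1 coding transcript held both. Both are coding in it, with 32 and 18 codons.
Kcnip2 96-base exon: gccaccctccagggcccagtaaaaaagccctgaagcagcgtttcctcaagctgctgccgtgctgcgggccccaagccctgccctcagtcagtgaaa
Kcnip2 54-base exon: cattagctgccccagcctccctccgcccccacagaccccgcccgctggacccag
Between them lies an intron of 758 bases, which is retained in some transcripts. Its first and last 100 bases follow, with the 2 bases at each end in capitals.
Kcnip2 intron start: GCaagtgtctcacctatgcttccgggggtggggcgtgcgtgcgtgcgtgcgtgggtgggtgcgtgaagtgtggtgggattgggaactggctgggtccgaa
Kcnip2 intron end: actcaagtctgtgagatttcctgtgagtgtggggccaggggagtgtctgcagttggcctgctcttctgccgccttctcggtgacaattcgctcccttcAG
The intron opens with GC rather than the usual GT, and ends with AG. The letters TCTT, UCUU in the RNA and the core of the sites that RBM20 is known to bind, were searched on the sense strand only. They occur 3 times in the intron and 0 times in either exon. The first 758 bases of 13039 annotated retained-intron transcripts hold a median of 4, and 69.1% of them hold at least 3. Those stretches can include exon, while the Kcnip2 count is from the stretch between the 2 printed exons. Inside that stretch lies 1 other annotated Kcnip2 exon, of 130 bases. The comparison is therefore a rough one, in which the Kcnip2 count was not high.

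The next 2 sequences are the 250 bases before the start of Kcnd2 and Kcnj3, the members whose RNA was lower in P635L hearts under both viruses (RefSeq, GRCm38.p6, both on the plus strand).
Kcnd2 promoter, chr6:21215096-21215345: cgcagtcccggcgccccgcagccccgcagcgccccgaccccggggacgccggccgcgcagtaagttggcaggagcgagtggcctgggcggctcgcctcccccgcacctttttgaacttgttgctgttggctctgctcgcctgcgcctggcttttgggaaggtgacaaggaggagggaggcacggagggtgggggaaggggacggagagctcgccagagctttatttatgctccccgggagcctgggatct
Kcnj3 promoter, chr2:55435720-55435969: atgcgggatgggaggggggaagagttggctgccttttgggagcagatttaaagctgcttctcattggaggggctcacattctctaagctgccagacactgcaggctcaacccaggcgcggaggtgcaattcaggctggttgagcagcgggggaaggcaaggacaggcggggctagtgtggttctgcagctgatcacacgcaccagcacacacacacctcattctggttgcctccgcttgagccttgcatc
Of the letters searched on both strands, neither sequence holds ACANNTGT (bound by Iroquois factors), CACGTG (the E-box), CCACACCC (bound by Krueppel-like factors) or TTATGTAA (the D-box). These are in 6.33%, 6.04%, 3.2% and 0.811% of 32536 promoters of this length, so their absence is the usual case. Promoters of Kcnv2, Kcnq1 and Kcne1 were not used here.

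Library totals ran from 28493249 to 85922669 counts, and the members took 0.125% to 0.163% of them. Tnpo3 ranged from 231 to 723 CPM (read counts scaled to library size with TMM factors) in the groups given its cDNA and from 41.6 to 49.4 CPM in the others. The gene ENSMUSG00000119584 took 19.96% to 22.65% of the counts in WT Ctr 2, WT Ctr 4 and WT Tnpo3 4. These are called the 3 rich libraries below, and in the other 13 the share was 0.7% to 5.3%. Xist exceeded the Y-linked genes in WT Ctr 4, WT Tnpo3 2 and WT Tnpo3 4, and in 0 of the 8 P635L libraries. Cell type markers also moved. Of 8 cardiomyocyte markers, 3 were lower in P635L Ctr than in WT Ctr (Myh6, Tnni3 and Myl2), and their summed level was 56000 to 60100 CPM against 74100 to 87200 CPM. All 6 fibroblast markers were higher, with a sum of 1270 to 1900 CPM in P635L Ctr, 750 to 1130 CPM in WT Ctr and 844 to 1180 CPM in P635L Tnpo3. Of 15 clock genes tested 1 was higher and 3 were lower. In whole tissue, fewer cells of a type and less RNA per cell cannot be told apart. The part of these shifts in the results below was not tested, except where a value without some libraries is given. Values of a group are listed in the order of its libraries 1 to 4.

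Kcnk3, a two-pore leak channel of the resting potential, had the highest level per length, at 86.6 CPM per kilobase of the gene's exons over all 16 libraries. It made up 24.8% of the members' sum. Kcnip2, the calcium-sensing subunit of the transient outward channel, followed at 54 CPM per kilobase, and Kcng2, a silent subunit that modifies other channels, at 43.6 CPM per kilobase. Kcnj11 stood at 36.0 CPM per kilobase, Kcnj8 at 29.0 and Kcnh2, the pore of the rapid delayed rectifier, at 18.3. With Kcnj5, Kcnq1, Kcna5 and Kcnj3, at 11.4 down to 6.4 CPM per kilobase, the first 10 members held 87.8% of the sum. The spreads of neighbours such as Kcnj5, Kcnq1 and Kcna5 overlapped, so their order is not a firm one.

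**Figure D1:**
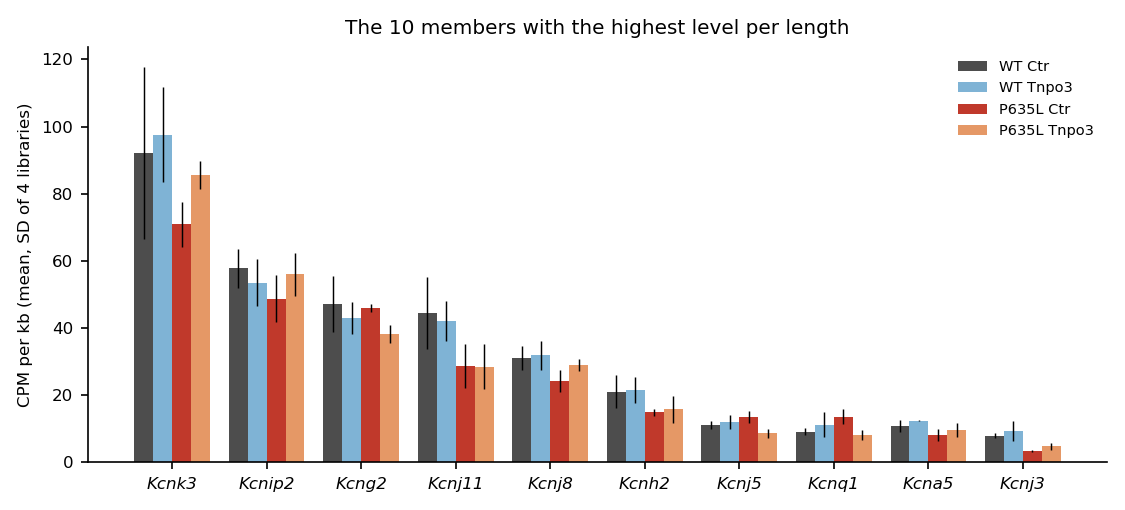
The 10 members with the highest level per length, as mean CPM per kilobase in each group on a linear axis, with bars of SD over 4 libraries. Kcnk3 stood above the rest, and the groups overlapped in most of the 10 members.

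How the mutation altered the members under the control virus was asked by setting P635L Ctr against WT Ctr. The transient outward pore Kcnd2, the silent subunit Kcnv2 and the acetylcholine-gated pore Kcnj3 were lower in mutant hearts, by 4.84-fold, 6.09-fold and 2.30-fold. The accessory subunits Kcne1 and Kcne4 were higher, by 2.00-fold and 1.86-fold. In all, 12 of 60 members (20%) passed an adjusted p under 0.05 in edgeR's quasi-likelihood test, where 14.2% of all 18662 genes did. Of these, 5 were higher (8.33% of members, against 7.07% of all genes) and 7 lower (11.7%, against 7.14%). The median log2 fold change was −0.32 over the members and −0.05 over all genes, with 42 of 60 members negative. The count was 8 to 16 when 1 library was left out and 8 without the 3 rich libraries. The authors' deposited table, made with DESeq2, lists 18 of 72 members at the same threshold (25%, against 15.6% of all its genes). It holds all 12 and adds Kcna3, Kcnab2, Kcnh2, Kcnq1, Kcnj14 and Kcnj4. P635L Ctr and WT Ctr values did not overlap in 15 of 60 members (25%), against 19.1% of all genes.

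**Figure D2:**
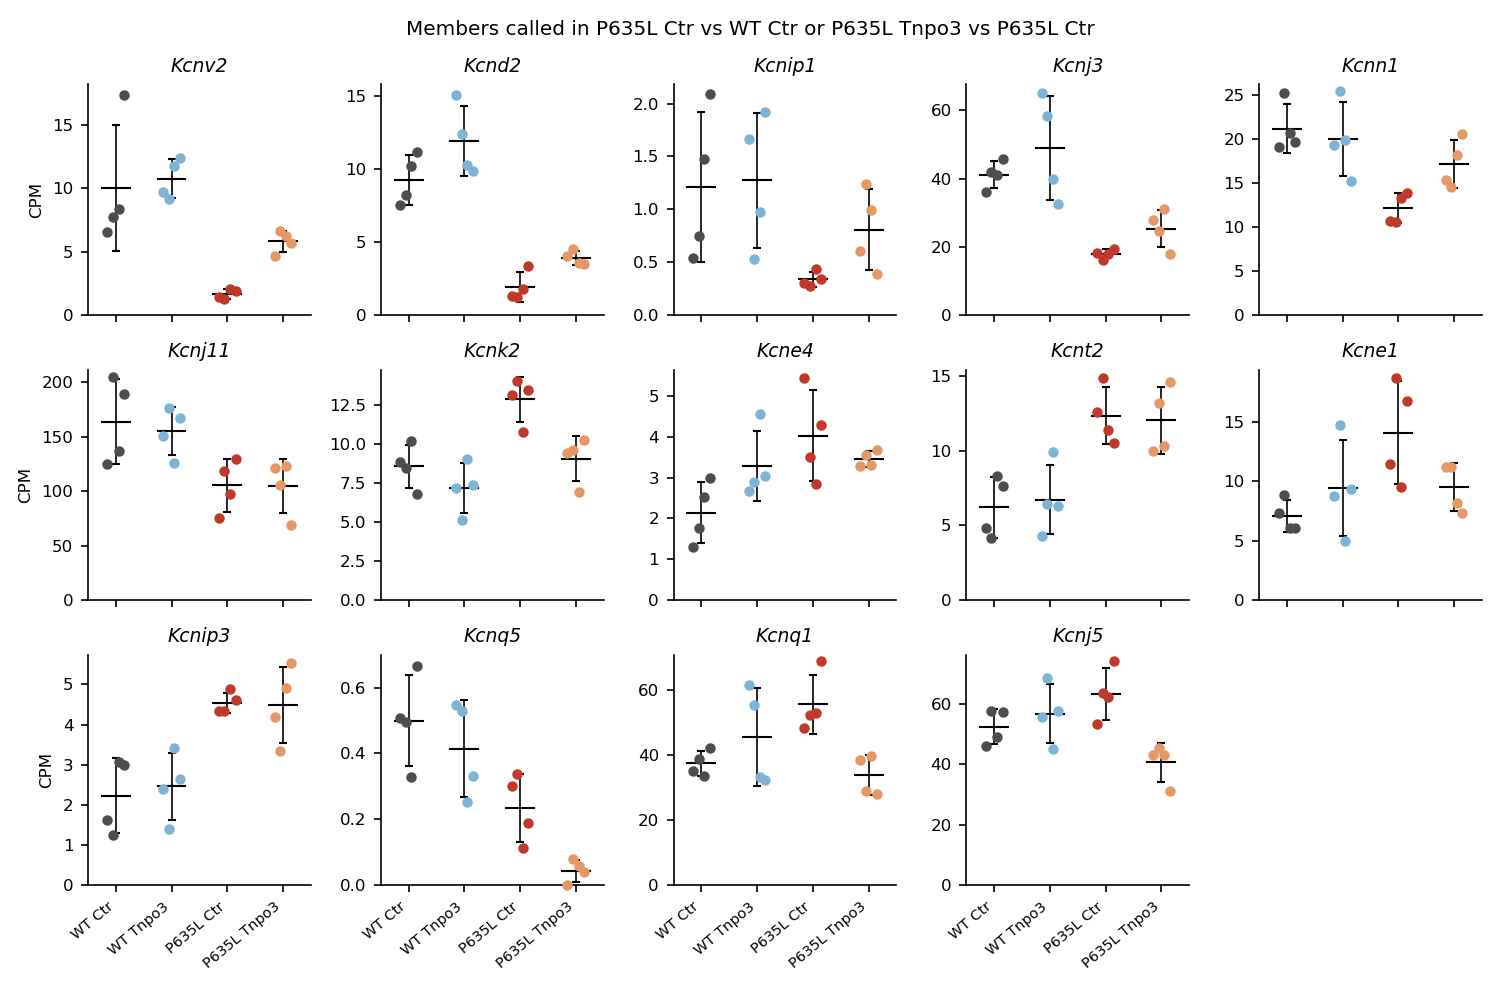
CPM of 14 of the 15 members called in P635L Ctr against WT Ctr or in P635L Tnpo3 against P635L Ctr, on linear axes from 0, with each library as a point, the group mean as a line and its SD as a bar. In Kcnv2 and Kcnd2 every P635L Ctr library lay below the libraries of the other 3 groups.

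Of the 4 genes of the transient outward current, 1 was lower in P635L Ctr and 0 were higher. Kcnd2 (chromosome 6, 21215502 to 21729804, GRCm39) is the pore of its fast component. Its level was 7.53, 8.21, 10.2 and 11.2 CPM in WT Ctr hearts and 1.29, 1.27, 1.76 and 3.39 CPM in P635L Ctr. It was 15.1, 12.4, 10.3 and 9.91 CPM in WT Tnpo3 and 4.03, 4.54, 3.58 and 3.52 CPM in P635L Tnpo3. All 8 WT values lay above all P635L Tnpo3 values, and these above all P635L Ctr values, while the WT groups overlapped. The log2 fold change was −2.28 (SE 0.27, edgeR adjusted p = 1.14e-05) in P635L Ctr against WT Ctr. With the Tnpo3 virus it rose in P635L hearts by 1.03 (SE 0.26, edgeR adjusted p = 0.0335). That rise did not pass the threshold without P635L Ctr 1, 2 or 3 or P635L Tnpo3 1, 2 or 3 (edgeR adjusted p = 0.0707 to 0.114, log2 fold change 0.88 to 1.07). Kcnd2 was still lower in P635L Tnpo3 than in WT Ctr, by −1.25 on the log2 scale (SE 0.25, edgeR adjusted p = 0.01), which became −1.15 (edgeR adjusted p = 0.0822) without the 3 rich libraries and −1.11 (edgeR adjusted p = 0.0514) without the 3 with high Xist.

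Kcnd3, the other pore of the fast current, was not called in any comparison. Its values were 13.2 to 18.6 CPM in WT Ctr, 10.1 to 18.3 CPM in P635L Ctr and 16.5 to 20.4 CPM in P635L Tnpo3, and the groups overlapped. The ratio of Kcnd2 to Kcnd3 per length was 1.06 to 1.17 in WT Ctr, 1.06 to 1.72 in WT Tnpo3, 0.163 to 0.627 in P635L Ctr and 0.336 to 0.453 in P635L Tnpo3. So Kcnd2 was at or above Kcnd3 in every WT library and below it in every P635L library. Kcnip2 was at 192, 198, 237 and 222 CPM in WT Ctr and at 149, 178, 212 and 177 CPM in P635L Ctr, a log2 difference of −0.25 (SE 0.13, edgeR adjusted p = 0.229). In WT Tnpo3 it was at 212, 215, 200 and 159 CPM and in P635L Tnpo3 at 212, 178, 235 and 199 CPM, so all 4 groups overlapped. Per length it exceeded the sum of the Kcnd pores 13.9 to 17 times in WT Ctr and 18.7 to 25 times in P635L Ctr. The 10 genes most like Kcnip2 by Pearson's r of log2 CPM over the 16 libraries were Sgca at 0.865, Acy3 at 0.834, Asb14 and Slc36a2 at 0.814, Slc2a8 at 0.807 and 5 more down to 0.749. These correlations are a description over libraries that share their groups and depths.

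Among the 7 genes of the mouse delayed rectifiers, 1 was lower and 0 were higher in P635L Ctr. It was Kcnv2 (chromosome 19, 27299988 to 27314579, GRCm39), which forms no channel alone and alters the channels it joins. Its level was 6.59, 7.76, 8.41 and 17.4 CPM in WT Ctr hearts and 1.45, 1.27, 2.03 and 1.9 CPM in P635L Ctr. It was 9.74, 9.16, 11.8 and 12.4 CPM in WT Tnpo3 and 4.69, 6.64, 6.25 and 5.7 CPM in P635L Tnpo3. Every P635L Ctr value lay below every value of the other 3 groups.
The log2 fold change was −2.61 in P635L Ctr against WT Ctr (SE 0.27, edgeR adjusted p = 2.86e-06) and 1.82 in P635L Tnpo3 against P635L Ctr (SE 0.26, edgeR adjusted p = 0.000681). Both held in every alternative that was run. Against WT Ctr the P635L Tnpo3 hearts differed by −0.79 (SE 0.25, edgeR adjusted p = 0.0957). The interaction, which asks whether the virus acted differently in the 2 genotypes, was 1.72 on the log2 scale (SE 0.36, edgeR adjusted p = 0.0347). Kcnv2 was the 1 member of 60 with such an interaction (1.67%, against 0.504% of all genes in either direction and 0.295% in this one). Its interaction missed the threshold without WT Ctr 3, WT Tnpo3 1 or 2, P635L Ctr 1, 2 or 4, or P635L Tnpo3 2 or 3 (1.60 to 1.79, edgeR adjusted p = 0.0513 to 0.109). Without the 3 libraries with high Xist it was 1.29 (edgeR adjusted p = 0.0802). Kcnab2, a cytoplasmic beta subunit, was at 8.83, 3.55, 2.36 and 2.98 CPM in WT Ctr and at 1.85 to 2.49 CPM in P635L Ctr (log2 fold change −1.07, SE 0.37, edgeR adjusted p = 0.0622). Kcna5, the ultrarapid pore, was at 31 CPM in WT Ctr hearts and 23.5 CPM in P635L Ctr (log2 fold change −0.40, edgeR adjusted p = 0.122).

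In the rapid and slow delayed rectifiers, 2 of 6 tested genes were higher in P635L Ctr and 0 lower. Kcne1, the accessory subunit that slows Kcnq1, was at 7.35, 8.87, 6.03 and 6.03 CPM in WT Ctr and at 11.4, 18.7, 9.53 and 16.7 CPM in P635L Ctr. The groups did not overlap, although the lowest P635L Ctr value was close to the highest WT Ctr value. In WT Tnpo3 it was 8.71, 14.7, 4.95 and 9.32 CPM and in P635L Tnpo3 11.2, 11.2, 8.19 and 7.34 CPM. With the mutation it differed by 1.00 on the log2 scale (SE 0.28, edgeR adjusted p = 0.0215). It missed the threshold without WT Ctr 3 or 4 or P635L Ctr 2 or 4 (edgeR adjusted p = 0.0571 to 0.0701) and without the 3 rich libraries (edgeR adjusted p = 0.0862).
Kcne4, an accessory subunit that inhibits Kcnq1, was at 1.3, 1.77, 2.52 and 2.98 CPM in WT Ctr and at 5.44, 3.51, 2.85 and 4.3 CPM in P635L Ctr. It was 2.67, 2.88, 4.56 and 3.04 CPM in WT Tnpo3 and 3.29, 3.56, 3.31 and 3.68 CPM in P635L Tnpo3, so here the groups overlapped. With the mutation this came to a log2 difference of 0.90 (SE 0.26, edgeR adjusted p = 0.0242), lost without WT Ctr 1 or 2 or P635L Ctr 1 or 4 (edgeR adjusted p = 0.0596 to 0.0968) and in a fit of these groups alone (edgeR adjusted p = 0.0664). Kcnh2 averaged 102 CPM in WT Ctr hearts and 72.1 CPM in P635L Ctr (log2 fold change −0.50, SE 0.18, edgeR adjusted p = 0.0823).

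Kcnq1 (chromosome 7, 142660099 to 142980779, GRCm39), the slow delayed rectifier pore, fell with the Tnpo3 virus in P635L hearts. It was at 48.4, 52.3, 53.1 and 69 CPM in P635L Ctr and at 38.5, 29.1, 39.9 and 28.2 CPM in P635L Tnpo3. These groups did not overlap, whereas WT Tnpo3, at 61.7, 55.5, 33.3 and 32.4 CPM, spanned both. WT Ctr was at 35.1, 38.9, 33.7 and 42.4 CPM. The log2 fold change in P635L Tnpo3 against P635L Ctr was −0.72 (SE 0.19, edgeR adjusted p = 0.0463). It missed the threshold when any of the 8 libraries compared, or WT Ctr 2 or 3, was left out (edgeR adjusted p = 0.0538 to 0.167). In P635L Ctr against WT Ctr the log2 fold change was 0.57 (SE 0.19, edgeR adjusted p = 0.0568). That value passed the threshold in some alternatives only, such as DESeq2 (adjusted p = 0.0312) and a fit of these groups alone (edgeR adjusted p = 0.0115). The authors' deposited DESeq2 table gives an adjusted p of 0.000798. Kcnq1ot1 overlaps Kcnq1 on the other strand, and since no source says whether counting used strand, reads of the 2 cannot be told apart. Kcnq1ot1 reached 36.8 and 54.9 CPM in WT Ctr 2 and 4 and 57.8 CPM in WT Tnpo3 4, which are the 3 rich libraries, and 6.14 to 27 CPM in the other 13.

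The acetylcholine-gated channel is a tetramer of Kcnj3 and Kcnj5 products, and its 2 genes were called in different comparisons. Kcnj3 (chromosome 2, 55325982 to 55488157, GRCm39) was at 36, 41.9, 41.1 and 45.6 CPM in WT Ctr and at 18.2, 16.2, 18 and 19.3 CPM in P635L Ctr. In WT Tnpo3 it was at 65.1, 58.4, 39.9 and 32.6 CPM and in P635L Tnpo3 at 27.7, 24.7, 31 and 18 CPM. Every P635L value lay below every WT value. For Kcnj3 the log2 fold change was −1.20 (SE 0.19, edgeR adjusted p = 0.000303) in P635L Ctr against WT Ctr and 0.50 (SE 0.19, edgeR adjusted p = 0.155) with the Tnpo3 virus in P635L hearts.
Kcnj5 (chromosome 9, 32226003 to 32255646, GRCm39) was at 46.1, 57.7, 49 and 57.5 CPM in WT Ctr, 55.7, 68.8, 45 and 57.8 CPM in WT Tnpo3, 53.3, 63.8, 62.3 and 74.3 CPM in P635L Ctr and 43.3, 45.4, 43.3 and 31.2 CPM in P635L Tnpo3. It fell with the Tnpo3 virus in P635L hearts, by −0.64 on the log2 scale (SE 0.15, edgeR adjusted p = 0.02), and the groups did not overlap. That call was lost without P635L Ctr 2 or 4 or P635L Tnpo3 3 or 4 (edgeR adjusted p = 0.0513 to 0.0841). The ratio of Kcnj3 to Kcnj5 per length was 0.652 to 0.755 in WT Ctr, 0.507 to 1.05 in WT Tnpo3, 0.228 to 0.306 in P635L Ctr and 0.488 to 0.644 in P635L Tnpo3. This channel is best known from atria. Of the 6 atrial markers, Myl7, Sln and Bmp10 were each at or below 1.43 CPM in every library, while Stard10 was at 17.8 to 44.6 CPM, Dkk3 at 2.6 to 20.5 CPM and Myl4 at 2.28 to 8.62 CPM. With the mutation Dkk3 was higher and Stard10 lower by the test, and the summed level of the 6 was 44.6 to 57.7 CPM in WT Ctr, 32.9 to 43.0 CPM in WT Tnpo3, 44.9 to 53.1 CPM in P635L Ctr and 32.1 to 37.3 CPM in P635L Tnpo3. The part of these markers in the Kcnj3 and Kcnj5 values was not tested.

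Of the 2 pores of the ATP-sensitive channel, Kcnj11 was lower. Its level was 125, 205, 137 and 189 CPM in WT Ctr, 151, 176, 126 and 167 CPM in WT Tnpo3, 75.5, 119, 97.1 and 130 CPM in P635L Ctr and 121, 106, 123 and 69.3 CPM in P635L Tnpo3. P635L Ctr 4 lay above WT Ctr 1, so the groups overlapped. The log2 fold change was −0.64 (SE 0.2, edgeR adjusted p = 0.0439). The call was lost in 16 of 25 alternatives, and the value became −0.28 (edgeR adjusted p = 0.499) without the 3 rich libraries, which include its 2 highest WT Ctr values. Among the 16 were 10 of the 16 fits with 1 library left out, those without WT Ctr 2 or 4, WT Tnpo3 1 or 2, P635L Ctr 1, 2 or 3 or P635L Tnpo3 1, 2 or 3 (edgeR adjusted p = 0.0503 to 0.157). Kcnj8, the pore found mainly in vessels, averaged 78.9 CPM in WT Ctr hearts and 61.8 CPM in P635L Ctr (log2 fold change −0.35, SE 0.12, edgeR adjusted p = 0.0613).

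None of the 4 inward rectifier genes tested was called in P635L Ctr against WT Ctr. Kcnj2 averaged 18 CPM in WT Ctr hearts and 15.7 CPM in P635L Ctr, and Kcnj12 averaged 11.3 CPM and 8.25 CPM. Kcnj4 was at 0.905, 1.07, 0.795 and 0.116 CPM in WT Ctr and at 0.138 to 0.222 CPM in P635L Ctr (a log2 difference of −1.90 with SE 0.67 and an edgeR adjusted p of 0.0662, where DESeq2 gave 0.0353). Kcnj14, another inward rectifier, split within groups. It stood at 33.5 and 29.7 CPM in P635L Ctr 1 and 3 and at 32.4 CPM in P635L Tnpo3 4. In all 13 other libraries it was between 0.297 and 2.39 CPM. Between the control groups it differed by 3.43 on the log2 scale (SE 1.35, edgeR adjusted p = 0.115), while the authors' deposited table gives 3.45 with the sign turned to the same direction and an adjusted p of 0.00987. Its high values came from P635L libraries, but from only some of them.

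**Figure D3:**
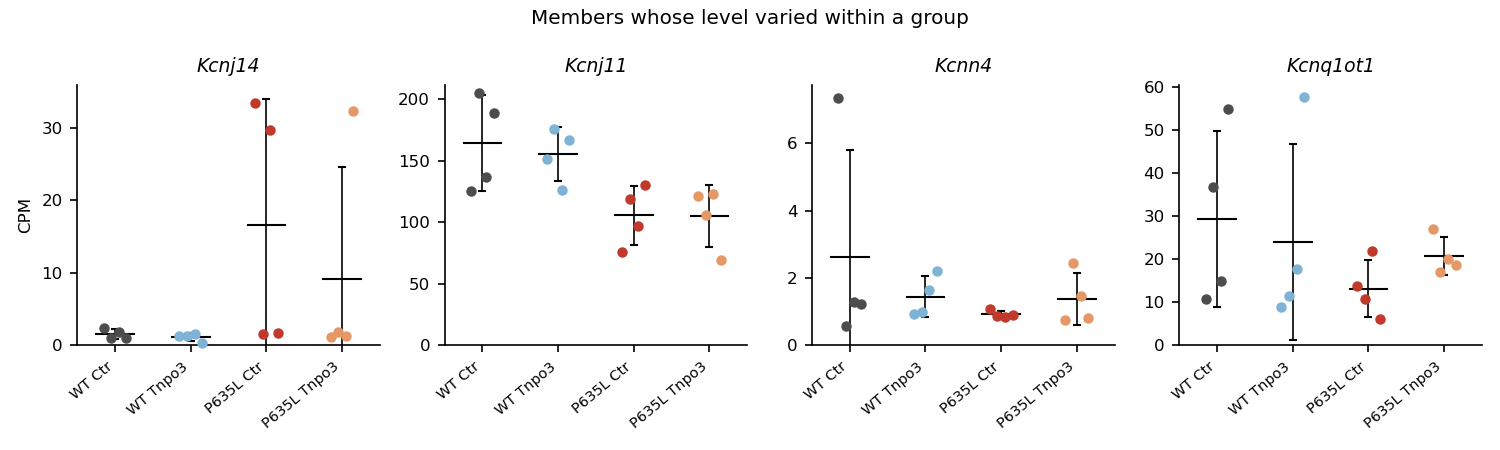
CPM of Kcnj14, Kcnj11, Kcnn4 and Kcnq1ot1 on linear axes, with each library as a point, the group mean as a line and its SD as a bar, whose lower end is cut at 0. Kcnj14 was near 30 CPM in 3 of the P635L libraries, and Kcnq1ot1 was highest in the 3 rich libraries.

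Of 6 two-pore channel genes tested, Kcnk2 was higher in P635L Ctr and none was lower. Kcnk2, a stretch-sensitive leak channel, was at 8.9, 8.46, 10.2 and 6.84 CPM in WT Ctr and at 13.2, 14.1, 10.8 and 13.5 CPM in P635L Ctr. In WT Tnpo3 it was at 7.19, 5.15, 9.08 and 7.37 CPM and in P635L Tnpo3 at 9.42, 9.63, 6.97 and 10.3 CPM. P635L Ctr stood above every other library. With the mutation Kcnk2 differed by 0.59 on the log2 scale (SE 0.17, edgeR adjusted p = 0.028), and with the Tnpo3 virus in P635L hearts it was −0.51 (SE 0.17, edgeR adjusted p = 0.11). The first was lost without WT Ctr 2 or 4, P635L Ctr 1, 2 or 4 (edgeR adjusted p = 0.05 to 0.0839) and without the 3 rich libraries (0.47, edgeR adjusted p = 0.163). Kcnk2 overlaps A430027H14Rik. As with Kcnk2, the fibroblast marker Pdgfra was higher with the mutation (1.06 on the log2 scale) and lower with the virus in P635L hearts (−0.92), as were 6 of 6 and 5 of 6 fibroblast markers by the test, and their part in the Kcnk2, Kcne4 and Kcnt2 values was not tested. The most abundant member, Kcnk3, averaged 367 CPM in WT Ctr, 388 in WT Tnpo3, 282 in P635L Ctr and 340 in P635L Tnpo3 (log2 fold change with the mutation −0.38, edgeR adjusted p = 0.117).

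Kcnn1, a small-conductance channel opened by calcium, was the 1 gene of 5 tested in its class to be called with the mutation. It was at 19.1, 25.2, 20.7 and 19.6 CPM in WT Ctr and at 10.7, 10.6, 13.3 and 13.8 CPM in P635L Ctr. With the Tnpo3 virus it was at 19.3, 25.4, 19.8 and 15.2 CPM in WT and 15.3, 14.5, 18.1 and 20.5 CPM in P635L hearts. P635L Ctr lay below every other library. Kcnn1 differed by −0.81 on the log2 scale with the mutation (SE 0.16, edgeR adjusted p = 0.00178) and 0.50 with the virus in P635L hearts (SE 0.16, edgeR adjusted p = 0.0828). It overlaps A230052G05Rik. Kcnn4, the intermediate-conductance channel known from blood cells, was at 7.35 CPM in WT Ctr 1 and at 0.578 to 1.29 CPM in the other WT Ctr libraries (log2 fold change with the mutation −1.51, SE 0.61, edgeR adjusted p = 0.112).

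Called members outside these current groups included both higher and lower ones. Kcnip1, a calcium-sensing subunit related to Kcnip2, was at 0.543, 0.743, 1.48 and 2.09 CPM in WT Ctr, 1.67, 0.53, 0.978 and 1.92 CPM in WT Tnpo3, 0.3, 0.274, 0.433 and 0.339 CPM in P635L Ctr and 0.61, 1.24, 0.992 and 0.385 CPM in P635L Tnpo3. P635L Ctr lay below WT Ctr and overlapped P635L Tnpo3, and its values rest on 13 to 26 reads per P635L Ctr library. With the mutation its log2 fold change was −1.86 (SE 0.49, edgeR adjusted p = 0.0144), lost without WT Ctr 4 (edgeR adjusted p = 0.0574), P635L Ctr 2 (edgeR adjusted p = 0.0571) or the 3 rich libraries (edgeR adjusted p = 0.0662). Kcnip3, a subunit of the same family, went the other way. It was at 1.63, 1.24, 3.07 and 2.98 CPM in WT Ctr, 2.4, 1.39, 3.41 and 2.64 CPM in WT Tnpo3, 4.35, 4.34, 4.88 and 4.6 CPM in P635L Ctr and 4.2, 3.34, 4.9 and 5.53 CPM in P635L Tnpo3, so that every P635L Ctr value exceeded every WT Ctr value. Its log2 fold change was 1.01 (SE 0.28, edgeR adjusted p = 0.0221), lost without WT Ctr 1 (0.89, edgeR adjusted p = 0.0582), WT Ctr 2 (0.84, edgeR adjusted p = 0.0583) or the 3 rich libraries (edgeR adjusted p = 0.0646).

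Kcnt2, a channel gated by sodium, was at 4.81, 4.13, 8.28 and 7.65 CPM in WT Ctr, 4.28, 6.43, 9.89 and 6.28 CPM in WT Tnpo3, 12.6, 14.9, 11.4 and 10.5 CPM in P635L Ctr and 10, 13.2, 10.3 and 14.6 CPM in P635L Tnpo3. Every P635L library lay above every WT library, and the P635L groups overlapped. For Kcnt2 the log2 fold change was 0.99 (SE 0.24, edgeR adjusted p = 0.0102) in P635L Ctr against WT Ctr, lost without the 3 rich libraries (edgeR adjusted p = 0.0547). In P635L Tnpo3 against WT Ctr it was 0.94 (SE 0.24, edgeR adjusted p = 0.0414), lost without WT Ctr 1 or 2, P635L Ctr 1, 3 or 4 or P635L Tnpo3 2, 3 or 4 (edgeR adjusted p = 0.0525 to 0.151), in a fit of these groups alone (0.0631), and without the 3 rich libraries (0.169) or those with high Xist (0.0633). It overlaps 4930590L20Rik.
Kcnq5, a relative of Kcnq1, had few reads, and fewest in P635L Tnpo3, with 0, 4, 3 and 2 reads, or 0, 0.0786, 0.0584 and 0.0385 CPM. It was at 0.507, 0.495, 0.329 and 0.667 CPM in WT Ctr, 0.546, 0.53, 0.252 and 0.33 CPM in WT Tnpo3, and 0.3, 0.338, 0.114 and 0.188 CPM in P635L Ctr, from at most 32 reads in a library. P635L Tnpo3 lay below every other library. The fitted log2 fold change of this rarely read gene was −2.32 against P635L Ctr (SE 0.61, edgeR adjusted p = 0.0399), −3.38 against WT Ctr (edgeR adjusted p = 0.00378) and −3.12 against WT Tnpo3 (edgeR adjusted p = 0.00717), values that depend on the prior count of the fit. The first was lost without WT Tnpo3 2, P635L Ctr 1, 2 or 4 or any 1 of the P635L Tnpo3 libraries (edgeR adjusted p = 0.0513 to 0.141) and with no filter on low counts (edgeR adjusted p = 0.0702).

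With the Tnpo3 virus in P635L hearts, 5 of 60 members (8.33%) were called, against 3.88% of all genes. Kcnd2 and Kcnv2 rose (3.33%, against 1.63%), and Kcnj5, Kcnq1 and Kcnq5 fell (5.0%, against 2.25%). The median log2 fold change was 0.07 over the members and 0.01 over all genes. The count was 1 to 6 with 1 library left out and 11 when these 8 libraries were fitted alone. Of the members above, Kcnd2 and Kcnv2 were called with the mutation too, and their P635L Tnpo3 means lay between those of P635L Ctr and WT Ctr. For Kcnv2 1 P635L Tnpo3 library, at 6.64 CPM, lay above the lowest WT Ctr library, at 6.59 CPM. The 2 comparisons share the P635L Ctr libraries. P635L Tnpo3 and P635L Ctr values did not overlap in 12 of 60 members (20%), against 20.4% of all genes, so a lack of overlap here was common.

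**Figure D4:**
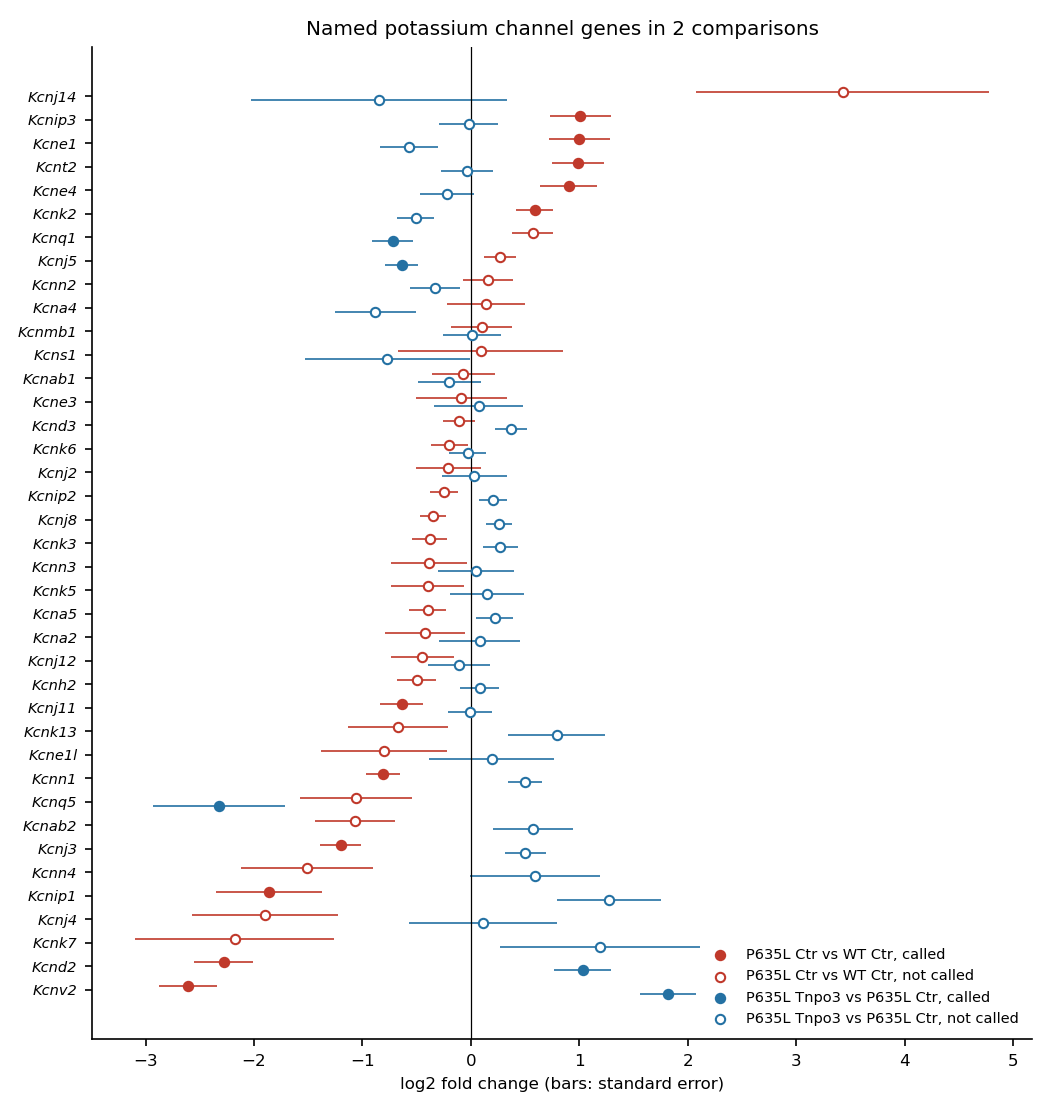
Log2 fold change (horizontal axis, bars of SE) of members named by the rule (1 per line), in P635L Ctr against WT Ctr in red and in P635L Tnpo3 against P635L Ctr in blue, with filled points for calls. Kcnv2 is at −2.61 and 1.82 and Kcnd2 at −2.28 and 1.03.

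In WT hearts the Tnpo3 virus changed 0 of 60 members by edgeR, against 0.00536% of all genes. By an unadjusted p under 0.05, 2 members differed, against 3.2% of all genes, and DESeq2 called 0. The authors' deposited table also lists 0, of 75 members, against 0.0123% of its genes.
In P635L Tnpo3 against WT Ctr, 4 of 60 members (6.67%) were called, against 3.07% of all genes: 1 was higher, Kcnt2 (1.67%, against 1.49%), and 3 were lower, Kcnd2 and Kcnq5 among them (5.0%, against 1.58%). DESeq2 called 8, and without the 3 rich libraries 1 was called. The authors' deposited table lists 6 of 60 members (10%, against 6.25%), adding Kcnip3 and Kcnj3.
In P635L Tnpo3 against WT Tnpo3, which shares no library with P635L Ctr against WT Ctr, Kcnd2, Kcnj3 and Kcnq5 were lower and none was higher. These 3 of 60 (5.0%) compare with 3.72% of all genes called in either direction and 2.0% called lower. Kcnd2 differed by −1.60 (SE 0.26, edgeR adjusted p = 0.00161) and Kcnj3 by −0.95 (SE 0.19, edgeR adjusted p = 0.00793). The count was 9 by DESeq2 and 8 without the 3 rich libraries. Of the 12 members called in P635L Ctr against WT Ctr, 12 had the same sign here and 2 were called in both (16.7%). Among all 2653 genes called there, 87.9% had the same sign and 17.7% were called in both, so the members stood near the other genes.

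Genes whose products partner, traffic or control the channels were followed as a list of 28, of which 24 were tested. In P635L Ctr against WT Ctr 5 of the 24 were lower and 0 higher, where 7.14% of all genes were lower and 7.07% higher, with a median log2 fold change of −0.20 against −0.05 over all genes. Abcc9 and Abcc8, the sulfonylurea receptors that complete the ATP-sensitive channel, differed by −0.80 (edgeR adjusted p = 0.00287) and −0.48 (edgeR adjusted p = 0.0183). Lrrc10, a leucine-rich repeat protein of cardiomyocytes, differed by −0.96 (edgeR adjusted p = 6.29e-05), and Ank2, a membrane anchor of channels, by −0.49 (edgeR adjusted p = 0.0189). Lrrc52, an auxiliary subunit of large potassium channels, differed by −1.75 (edgeR adjusted p = 0.012). With the Tnpo3 virus in P635L hearts Lrrc10 rose by 0.65 (edgeR adjusted p = 0.00858), and no other partner was called, where 3.88% of all genes were. Klf15, a factor that controls Kcnip2, differed by −0.50 with the mutation (edgeR adjusted p = 0.12) and Irx5, a repressor of Kcnd2, by 0.23 (edgeR adjusted p = 0.423).

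The deposited splicing tables, made by the authors with rMATS, hold 63 events of 19 members in P635L Ctr against WT Ctr, 55 of 19 in P635L Tnpo3 against WT Ctr and 53 of 20 in WT Tnpo3 against WT Ctr. An event was called when its FDR was under 0.05, its inclusion differed by 0.1 or more, and both groups averaged 10 or more junction reads a library, a depth that 39, 30 and 32 of them reached. The numbers called were 0, 1 and 0, where 1.96%, 1.65% and 0.731% of all events were called. By rMATS p-values under 0.05 without adjustment there were 7, 4 and 3. The events that passed the FDR without the read minimum were 2, 2 and 0, among them mutually exclusive exons of Kcnt2 in P635L Ctr against WT Ctr (FDR 0.032). For these looser rules the share of all events was not computed, so their counts cannot be set against a background.

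The called event was retention of the 758-base intron of Kcnip2 printed above, between exons at 45784718 to 45784771 and 45785530 to 45785625 of chromosome 19 (GRCm39, minus strand). Its inclusion level was 0.304, 0.273, 0.531 and 0.419 in WT Ctr and 0.612, 0.661, 0.438 and 0.77 in P635L Tnpo3, in the tables' own order, which is not tied to library numbers. It was 0.09, 0.424, 0.504 and 0.541 in WT Tnpo3 and 0.418, 0.364, 0.393 and 0.284 in P635L Ctr. All P635L Tnpo3 values lay above all P635L Ctr values, and 1 of the 4 fell within the range of WT Ctr. The difference from WT Ctr was 0.238 (FDR 0.00862), while P635L Ctr differed from WT Ctr by −0.017 (FDR 1.0).
In P635L Tnpo3 against P635L Ctr, the difference was 0.255 (two-sided exact permutation p = 0.0286, the smallest that 70 assignments allow). Adjusted over the 7 Kcnip2 events compared, 6 of which were chosen after their values were seen, it was 0.2. The intron event itself was chosen through its difference from WT Ctr in the same P635L Tnpo3 libraries. Its permutation p is therefore no independent support. Over the groups in the order WT Ctr, WT Tnpo3, P635L Ctr, then P635L Tnpo3, the 54-base exon had mean levels of 0.659, 0.592, 0.749 and 0.64 (difference with the mutation 0.091, FDR 0.223). The 96-base exon had 0.706, 0.712, 0.612 and 0.717 (difference with the mutation −0.094, FDR 0.132). Neither exon passed the threshold, and between the P635L groups the two-sided exact permutation p was 0.143 and 0.0857.

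**Figure D5:**
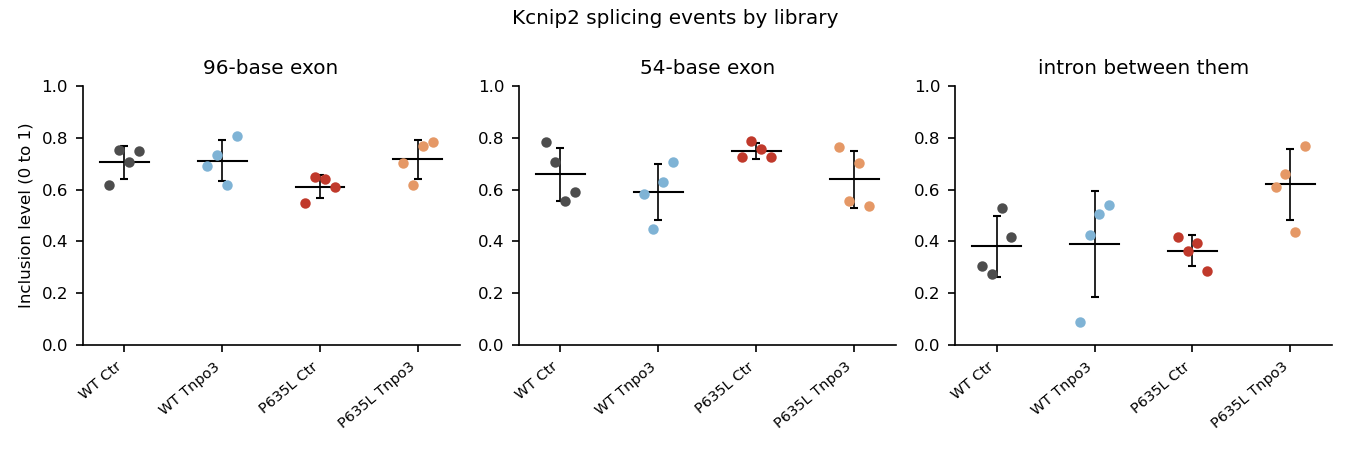
Inclusion level, from 0 to 1, of the retained intron, the 54-base exon and the 96-base exon of Kcnip2 in each group, with each library as a point, the group mean as a line and its SD as a bar. For the retained intron all 4 P635L Tnpo3 libraries lay above the P635L Ctr libraries.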

How the data were processed

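Reads were aligned to GRCm39 with STAR 2.7.9a and counted with featureCounts 2.0.6, per the submitters' processing notes, and the authors deposited raw counts per gene, with gene lengths and other columns. The authors' deposited DESeq2 tables give a mean normalised signal, a log2 fold change, its SE and statistic (a score) and p-values. The authors' deposited rMATS tables give junction reads, inclusion levels, p-values and a difference score.

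The counts of all 16 libraries were fitted in R 4.3.3 with edgeR 4.0.16 (TMM, filterByExpr, robust quasi-likelihood F test, 4 group means, 12 residual degrees of freedom), with Benjamini-Hochberg values over 18662 genes, a threshold of 0.05 and two-sided tests. Fold changes are fitted values with a prior count. The model was tested on simulated data for P635L Ctr against WT Ctr. It recovered 51% of 2-fold and 79% of 4-fold changes, and 5.1% of its calls were false. A member that was not called may therefore still differ. Alternatives were upper-quartile factors, DESeq2 1.42.0, other filters, fits of 2 groups, a replicate block and libraries left out.

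The series' design gives 4 mice per group and no label ties a library to a mouse, so p-values measure the spread between these libraries. The members to be named were those of the cardiac current groups that passed the filter and every other member called. Values are given in the text for part of them. The members and the lists of partner genes and cell type markers were chosen with earlier results of these data known. Of the other lists in P635L Ctr against WT Ctr, 1 of 3 atrial markers tested was higher and 1 lower, 1 of 5 conduction genes was lower (Tbx3), 2 of 3 skeletal muscle genes tested (Tnnt3 and Tnni2) and 1 of 5 neuron and glia genes (Dbh) were higher, and 1 of 6 macrophage genes was lower (Cd68). Smooth muscle, endothelial and lymphocyte lists had 0 called. Some members are not reported here, though they are in the counts.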

Additional observations from a re-analysis of the deposited data

Results flagged for a closer look

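In groups of 4 libraries, a member was singled out where 1 library lay far from the other 3. Of 164 such groups checked, 10 were, and chance gives about 5% (1 in 20). Kcnj14 was at 32.4 CPM in P635L Tnpo3 4, with the others at 1.05 to 1.85 CPM. Kcnv2 was at 17.4 CPM in WT Ctr 4, against 6.59 to 8.41 CPM. Kcnn4 was at 7.35 CPM in WT Ctr 1, against 0.578 to 1.29 CPM. That library also had the highest summed macrophage markers (626 CPM) and lymphocyte markers (30.4 CPM), whose part in it was not tested. Kcnj5 was at 31.2 CPM in P635L Tnpo3 4, against 43.3 to 45.4 CPM. In WT Tnpo3, Kcnk13 was at 1.66 CPM in library 2 (others 0.628 to 0.671 CPM), Kcnn3 at 3.04 CPM in library 4 (1.77 to 1.93 CPM) and Kcnk7 at 0.297 CPM in library 4 (0 to 0.0252 CPM). In the control groups, Kcnab1 was at 1.57 CPM in P635L Ctr 1 (1.01 to 1.07 CPM), Kcnk6 at 4.74 CPM in P635L Ctr 3 (5.62 to 5.75 CPM) and Kcne1l at 0.11 CPM in WT Ctr 3 (0.638 to 0.724 CPM). By the fit of all libraries, the effect of the Tnpo3 virus on Kcnv2 differed between the genotypes, by an interaction of 1.72 on the log2 scale (edgeR adjusted p = 0.0347). That call was lost without some single libraries and without the 3 with high Xist, WT Ctr 4 among them (1.29, edgeR adjusted p = 0.0802).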

How the results depend on the processing

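No named result changed direction in any alternative. The number of members called in P635L Ctr against WT Ctr stayed between 8 and 18 over all alternatives. With 1 library left out it was 8 to 16 there, 1 to 6 in P635L Tnpo3 against P635L Ctr, 3 to 5 in P635L Tnpo3 against WT Ctr, 3 to 8 in P635L Tnpo3 against WT Tnpo3, 0 to 3 in the interaction and 0 in WT Tnpo3 against WT Ctr. By DESeq2 the counts moved to 8 in P635L Tnpo3 against WT Ctr, 9 in P635L Tnpo3 against WT Tnpo3 and 3 in the interaction. Without the 3 libraries rich in ENSMUSG00000119584 they moved to 1, 8 and 2, and without the 3 with high Xist the interaction gave 0. A fit of the compared groups alone gave 11 in P635L Tnpo3 against P635L Ctr. The cause was not tested. Same-numbered libraries did not vary together as a rule (median r −0.0575, highest 0.552, over 0.1 in 6 of 24 pairs). Of 16 libraries, 3 correlated best with their own number, so the numbers were not used as pairs in the main fit. Whether some same-numbered libraries are linked was not tested. With a replicate block, 3 members were called in P635L Tnpo3 against P635L Ctr and 5 in P635L Tnpo3 against WT Tnpo3. Without a minimum of junction reads 2 events were called in each P635L table. The intron retention difference between the P635L groups was 0.206 to 0.316 with 1 library left out. Depth limits members with few reads, such as Kcnq5 and Kcnip1.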
